A study of Mus musculus with 12 samples.

Results

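The measured odorant receptor genes with symbols from Olfr987 to Olfr1318 all lie on mouse chromosome 2. They are called the region here, although they fall into 4 separate runs. They were taken by the number in the symbol, both ends included, among array probes that list 1 gene symbol, and where a gene had several probes the one with the highest mean stands for it. The RefSeq gene table of GRCm38.p6 holds 320 genes of that range, 244 protein-coding genes and 76 pseudogenes. Of these, 237 had such a probe and are described here, 231 protein-coding genes and 6 pseudogenes, out of 19937 genes measured. A further 11 genes of the range appear only on probes that list several symbols, and 72 on no listed probe. The other 790 measured genes with an Olfr symbol serve as a comparison.

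The tissue was the olfactory epithelium of male C57BL/6 mice, the sheet at the back of the nasal cavity that holds the olfactory sensory neurons. The mice had lived in a light and dark cycle of 12 h each before they were moved to constant darkness, which all groups share. Epithelia were taken every 4 h from circadian time (CT) 12 to CT56, and each of the 12 time points is a single pool of RNA from 4 mice on 1 array, 48 mice in all. CT36 to CT56, the second cycle in these data, repeat the phases of CT12 to CT32, the first cycle. CT 0 to 12 is the subjective day and CT 12 to 24 the subjective night. Because each time point is 1 pool, every p-value here measures the spread between pools and not between mice, and a single time point has no replicate check.

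Odorant receptors are G protein-coupled receptors on the cilia of olfactory sensory neurons. A mature neuron transcribes a single allele of a single receptor gene, so the RNA level of a receptor in whole epithelium follows both how many neurons have chosen it and how much RNA each of them holds. Fewer cells of a type and less RNA per cell cannot be told apart in pooled tissue. Odorant binding activates the G protein Golf and adenylyl cyclase 3, and the cAMP formed opens a cyclic nucleotide-gated channel. The choice of a receptor needs the transcription factor LHX2, its partner LDB1 and EBF factors, which act at receptor promoters and at distant enhancers, and each receptor is chosen within a limited zone of the epithelium. Genes of this region are related in sequence, so a probe for one can also bind transcripts of a relative, and such cross-binding was not tested.

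The genes are not 1 unbroken array of receptors. In the order of the RefSeq table they fall into 4 runs, split wherever a named protein-coding gene that is no odorant receptor lies between. The first run, Olfr987 to Olfr995, has 6 measured genes, and the second, Olfr996 to Olfr1126, has 89 and follows Fads2b. The third, Olfr1130 to Olfr1274, has 107 and follows Pramel7 and Pramel6. The fourth, Olfr1275 to Olfr1317, has 35 and lies beyond 111 other named genes.

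Receptor promoters are known for short homeodomain sites, bound by factors such as LHX2, and for Olf1/EBF sites. RefSeq windows of 300 bases on GRCm38.p6, 250 before the annotated start and 50 from it on, were found for 191 of the 237 genes. In 138 of these the annotated start is the start codon, so the window lies before the coding sequence rather than at a mapped transcription start. The homeodomain core TAATNA, searched on both strands, occurred in 77.5% of the 191 windows, against 63.3% of the windows of other odorant receptors and 26.8% of those of all genes in the table. The Olf1/EBF core CCCNNGGG, which reads the same on both strands, occurred in 2.62%, against 3.11% for other odorant receptors and 13.4% for all genes. Of the 53 windows whose start is not the start codon 9.43% held it, and of the 138 others 0%, while TAATNA was found in 83.0% and 75.4%. The 4 windows printed here hold 0 matches to the Olf1/EBF core. A match is a description of letters and not a binding site. The fixed letters of TAATNA are A and T, and those of CCCNNGGG are C and G. The base composition of the windows was not compared between the sets.

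The windows below are those of 3 genes that were highest in the CT56 pool and of 1 that was highest in the CT44 pool, chosen among genes whose start is not the start codon. They are printed in the direction of transcription, with matches to TAATNA on either strand in capitals. The Olfr1290 window is chr2:111493766-111494065 on the minus strand, that of Olfr1110 is chr2:87140184-87140483 on the minus strand, and that of Olfr1082 is chr2:86598760-86599059 on the minus strand. The Olfr1205 window is chr2:88829507-88829806 on the plus strand. The Olfr1082 window holds 4 matches, and each of the other windows shown holds 1.
Olfr1290: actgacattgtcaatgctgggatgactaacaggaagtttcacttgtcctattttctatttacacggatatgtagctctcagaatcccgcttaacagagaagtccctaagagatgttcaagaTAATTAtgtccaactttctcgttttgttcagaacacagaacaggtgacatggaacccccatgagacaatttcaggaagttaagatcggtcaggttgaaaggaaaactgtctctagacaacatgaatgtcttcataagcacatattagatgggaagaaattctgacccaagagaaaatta
Olfr1110: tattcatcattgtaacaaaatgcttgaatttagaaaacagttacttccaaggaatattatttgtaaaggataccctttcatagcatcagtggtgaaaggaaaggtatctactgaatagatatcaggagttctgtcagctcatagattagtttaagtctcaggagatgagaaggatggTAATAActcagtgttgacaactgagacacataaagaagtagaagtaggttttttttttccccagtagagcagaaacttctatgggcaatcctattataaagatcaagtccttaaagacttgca
Olfr1082: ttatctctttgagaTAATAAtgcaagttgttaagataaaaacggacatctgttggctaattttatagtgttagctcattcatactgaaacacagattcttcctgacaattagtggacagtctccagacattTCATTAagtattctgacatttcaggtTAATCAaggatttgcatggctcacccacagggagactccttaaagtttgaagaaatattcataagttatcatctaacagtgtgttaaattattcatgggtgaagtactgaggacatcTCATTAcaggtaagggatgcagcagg
Olfr1205: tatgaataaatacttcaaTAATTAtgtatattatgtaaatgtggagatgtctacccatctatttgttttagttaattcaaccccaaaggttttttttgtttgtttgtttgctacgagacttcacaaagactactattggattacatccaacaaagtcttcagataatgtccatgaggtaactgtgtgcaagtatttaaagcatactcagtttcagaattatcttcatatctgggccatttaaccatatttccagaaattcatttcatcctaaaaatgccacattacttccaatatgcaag

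Most of the receptors gave low signals. Mean log2 intensity over the 12 pools had a median of 6.41 over the 237 genes, with the middle of the distribution between 5.52 and 7.74, against 7.31 for the other odorant receptors and 8.18 for all genes. Of the 237 genes, 84 lay above the 25th percentile of all genes (7.10), 47 above the 50th (8.18) and 27 above the 75th (9.20). A probe's signal depends on the probe as well as on the transcript, so no order of expression between receptors is read from these levels, and near the low end a signal cannot be told apart from background.

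Olfr1174 and Olfr1019, among the probes with the highest means, varied less over the pools than the median gene of the array (SD 0.13). Olfr1174 was listed at 11.07 at its lowest, 11.27 at the median and 11.45 at its highest, a mean of 11.26 ± 0.11 (SD over 12 pools). Olfr1019, a receptor studied for its response to the fox odour trimethylthiazoline, ran from 10.70 at CT40 through a median of 10.82 to 11.01 at CT24, a mean of 10.83 ± 0.08. The range of either gene over the 12 pools was under 0.5 on the log2 scale. Olfr987, Olfr1046 and Olfr994 had means of 10.45 ± 0.16, 10.26 ± 0.17 and 10.22 ± 0.22, and Olfr1176 is described below. At the lower end Olfr1254 averaged 4.11 ± 0.08, Olfr1232 4.12 ± 0.05 and Olfr1049 4.18 ± 0.25.

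The pools differed more for these receptors than for most genes. The SD over the 12 pools had a median of 0.19 over the 237 genes, against 0.17 for other receptors and 0.13 for all genes. It exceeded 0.4 in 15 of the 237 (6.33%), against 44 of 790 other receptors (5.57%) and 0.898% of all genes. The most variable was Olfr1290 (SD 1.07), followed by Olfr1297 (0.67), Olfr1110 (0.65) and Olfr1206 (0.62). Of these 4, the first 3 were highest at CT56 and Olfr1206 at CT44.

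**Figure D1:**
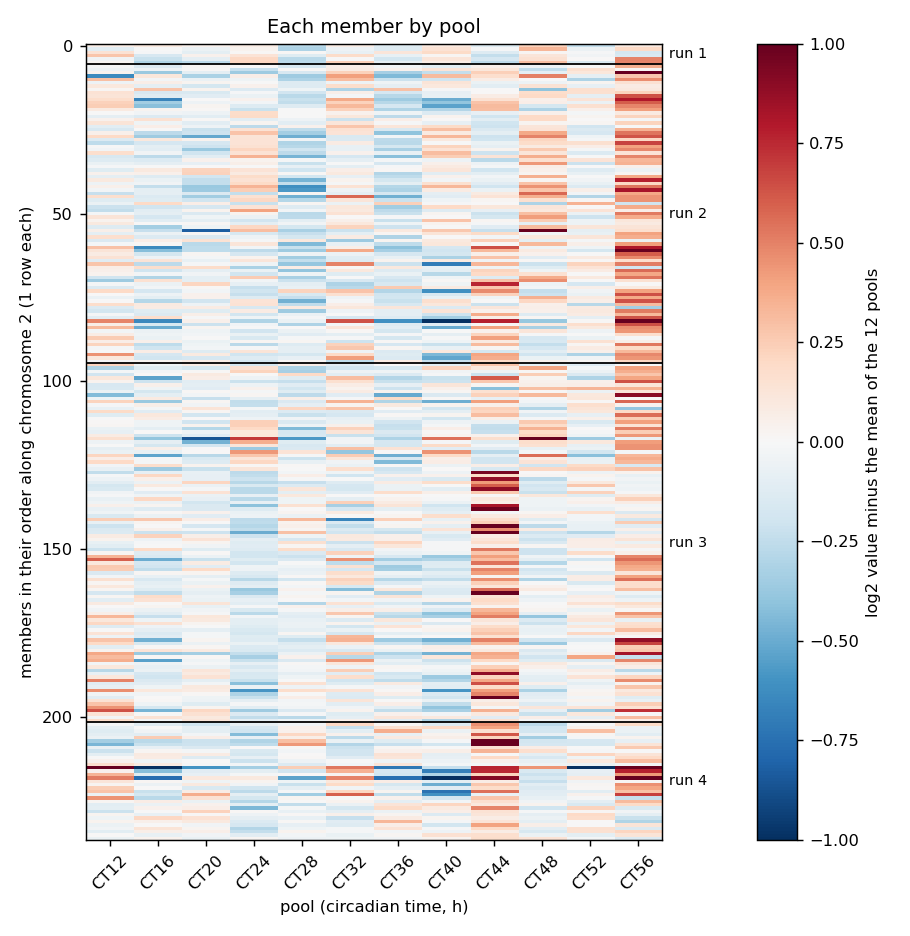
Each of the 237 receptors is 1 row, in its order along chromosome 2, and each column is 1 pool from CT12 to CT56. Colour gives the log2 value minus the gene's mean over the 12 pools, capped at 1 in either direction, and black lines separate the 4 runs. The CT56 column is red over much of run 2, and the CT44 column is red over the later part of run 3 and in run 4.

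No receptor of the region had a daily rhythm that passed the test. A 24 h cosine was fitted to all genes with limma, and 0 of the 237 had an adjusted p under 0.05, where 0.0251% of all genes did. At an unadjusted p under 0.05 there were 5 (2.11%), against 3.54% of all genes and 3.67% of other receptors. The median fitted amplitude, from mean to peak on the log2 scale, was 0.086 for the 237 genes, against 0.085 for other receptors and 0.065 for all genes. The fitted peak lay in the subjective day for 143 of the 237 (60.3%), against 71.9% of other receptors and 54% of all genes.

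The smallest p belonged to Olfr1176. From CT12 to CT32 its log2 values were 10.97, 10.67, 10.81, 11.16, 11.04 and 11.21, and from CT36 to CT56 they were 10.83, 11.04, 10.88, 11.25, 11.27 and 11.33. Pools of the subjective day were mostly the higher ones, with CT56 the highest and CT16 the lowest of all. The fitted amplitude was 0.22 ± 0.06 (SE, 12 pools) with a peak at CT 4.60 h (limma's moderated F test, unadjusted p = 0.00504, adjusted p = 0.946).

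Olfr1055 followed, with 7.16 at its lowest in CT36, a median of 7.42 and 7.82 at its highest in CT24. Its amplitude was 0.20 ± 0.05 with a peak at CT 1.57 h (unadjusted p = 0.00598, adjusted p = 0.970 by limma). The other 3 under 0.05 unadjusted were Olfr1164 (amplitude 0.20, peak CT 9.87 h), Olfr1308 (0.12, CT 20.7 h) and Olfr1097 (0.23, CT 19.7 h). Of these, Olfr1097 had 6.50 at CT44, against 5.43 to 5.95 in the other 11 pools. The next 5 genes by p, Olfr1023, Olfr1077-ps1, Olfr1062, Olfr1014 and Olfr1020, had amplitudes from 0.12 to 0.31 and adjusted p = 0.996 each. The unadjusted count of 5 became 24 without CT44, 18 without CT28, 10 without CT56 and 3 without CT32, while the adjusted count was 0 without any single pool. Shares of all genes without these pools are not set beside the counts, so no excess of rhythmic receptors is read from them.

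The receptors of the region tended to be higher in the second cycle, and no single gene passed the test. Second minus first cycle was fitted with phase as a factor, and 0 of the 237 had an adjusted p under 0.05, as for all genes (0%). At an unadjusted p under 0.05, 38 were higher in the second cycle (16%, against 4.22% of all genes and 6.33% of other receptors) and 1 was lower (0.422%, against 8.94% of all genes and 6.58% of other receptors). The difference was above 0 in 194 of the 237 (81.9%), against 58.1% of other receptors and 38.3% of all genes. Its median was 0.08, against 0.02 for other receptors and -0.03 for all genes. The labels give no batch, so days in darkness and any batch that ran along with them cannot be told apart.

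Olfr1065 had the smallest p. Its 6 pools of the second cycle had 8.21 at the lowest, 8.57 at the median and 9.45 at the highest, against 7.62, 8.22 and 8.75 in the first cycle. The cycles overlapped, with CT48 above all other pools, but each of the 6 pairs of pools 24 h apart was higher in the second cycle. The fitted difference was 0.41 ± 0.08 (SE, 6 pairs; limma, unadjusted p = 0.000357, adjusted p = 0.304).

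Olfr1131 had 7.41, 7.75 and 7.99 as its lowest, median and highest value in the second cycle, against 7.28, 7.40 and 7.74 in the first. The ranges overlapped and 6 of 6 pairs were higher (0.31 ± 0.06, adjusted p = 0.304 by limma). Olfr1098, Olfr1181 and Olfr1066 were also higher in 6 of 6 pairs, by 0.25 ± 0.06, 0.20 ± 0.05 and 0.21 ± 0.06, and Olfr1029 was higher in 5 of 6, by 0.39 ± 0.11 (adjusted p = 0.304 each). With CT12 or CT36 left out, and their pair with it, Olfr1065 (0.48) and Olfr1029 (0.52) passed the test at an adjusted p = 0.0461, and with array weights Olfr1065 passed (0.49, adjusted p = 0.0403).

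Olfr1043 was the 1 gene lower in the second cycle at an unadjusted p under 0.05. It had 9.92, 10.13 and 10.24 as its lowest, median and highest value in the second cycle, against 10.22, 10.28 and 10.44 in the first. The cycles overlapped only narrowly, and 0 of 6 pairs were higher (-0.17 ± 0.06, limma, adjusted p = 0.304). Olfr1148, Olfr993, Olfr1155, Olfr1240 and Olfr1208, next in that direction, differed by -0.17 to -0.07 with unadjusted p from 0.0904 to 0.287.

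The higher levels in the second cycle were largest in 2 pairs of pools. The median difference over the 237 genes was 0.23 for CT56 minus CT32 and 0.17 for CT44 minus CT20, with 192 and 189 genes above 0 (81% and 79.7%, against 37.9% and 38.3% of all genes). It was 0.07 for CT48 minus CT24 and 0.09 for CT52 minus CT28, with 163 and 172 genes above 0 (68.8% and 72.6%, against 45.6% and 51.7% of all genes). It was 0.01 for CT40 minus CT16, with 126 above 0 (53.2%, against 37.5% of all genes), and -0.09 for CT36 minus CT12, with 89 above 0 (37.6%, against 51.6%). The unadjusted count of 38 higher genes was 76 without CT12 or CT36 and 22 without CT32 or CT56. Without CT44 and CT56 together it was 11, with 5 lower and a median difference of 0.02. For these counts with pools left out, shares of all genes are not given.

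**Figure D2:**
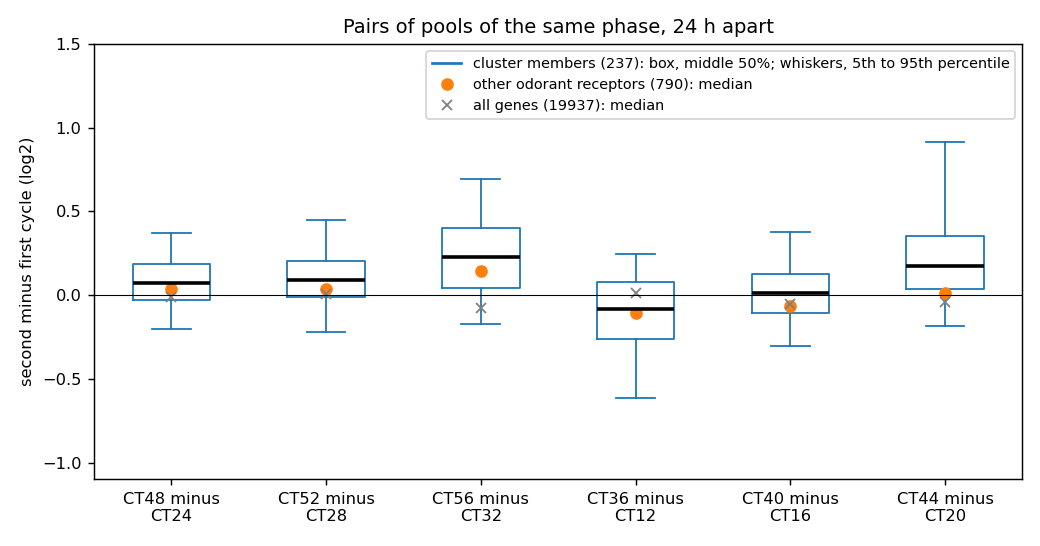
For each of 6 pairs of pools of the same phase, 24 h apart, boxes show second minus first cycle on the log2 scale over the 237 receptors, with the middle 50% in the box, the median as a black line and whiskers from the 5th to the 95th percentile. Orange points are medians of 790 other odorant receptors and grey crosses medians of all 19937 genes. The medians of the 237 lie at 0.23 for CT56 minus CT32 and 0.17 for CT44 minus CT20, and at -0.09 for CT36 minus CT12.

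The CT56 pool, a time point in the subjective day, held the highest value of many receptors of the region. CT56 was the highest of the 12 pools in 109 of the 237 (46.0%), against 39.0% of other receptors and 15.9% of all genes. CT56 minus the mean of the other 11 pools had a median of 0.23, against 0.18 for other receptors and -0.03 for all genes. It exceeded 0.5 on the log2 scale in 52 genes (21.9%, against 3.61% of all genes and 15.8% of other receptors). No gene of the region lay below -0.5, where 1.34% of all genes did. CT56 is 1 pool, so these differences have no test.

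The largest difference was that of Olfr1290. It was listed at 8.37 in CT56, against 4.70 at the lowest, 6.12 at the median and 7.47 at the highest among the other 11 pools, a difference of 2.20 in log2 or 4.61-fold. The other pools of this gene were widely spread (SD 0.91), and CT12 and CT44 were the next highest. Olfr1110 had 8.99 in CT56, against 6.81, 7.81 and 8.66 as the lowest, median and highest of the others (1.21). Olfr1082 had 6.78, against 5.27, 5.49 and 6.07 (1.18). In all 3 genes CT56 lay above every other pool.

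Olfr1000 had 7.38 in CT56, against 5.97, 6.25 and 6.59 as the lowest, median and highest of the others (1.12). Olfr1297 had 8.60, against 6.55, 7.69 and 8.51 (1.10), so that CT56 stood only just above CT44. Olfr1140 had 9.48, against 8.07, 8.48 and 8.90 (0.98). Olfr1246 and Olfr1251 were higher by 0.96 and 0.91, again with CT56 above all other pools. Against CT32 alone, the pool of the same phase a cycle earlier, the differences were smaller for several of them, 0.47 for Olfr1110, 0.71 for Olfr1082, 0.53 for Olfr1246 and 0.58 for Olfr1251, and 1.01 for Olfr1140.

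The lowest differences were small. Olfr1148 had 7.92 in CT56, against 8.01, 8.31 and 8.58 as the lowest, median and highest of the others (-0.42). Olfr1105 had 5.90 in CT56, against 6.09, 6.33 and 6.37 (-0.37). In both genes CT56 was the lowest pool. Olfr1311 (-0.32) was also lowest at CT56, whereas Olfr1256 (-0.29) was lowest at CT12.

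**Figure D3:**
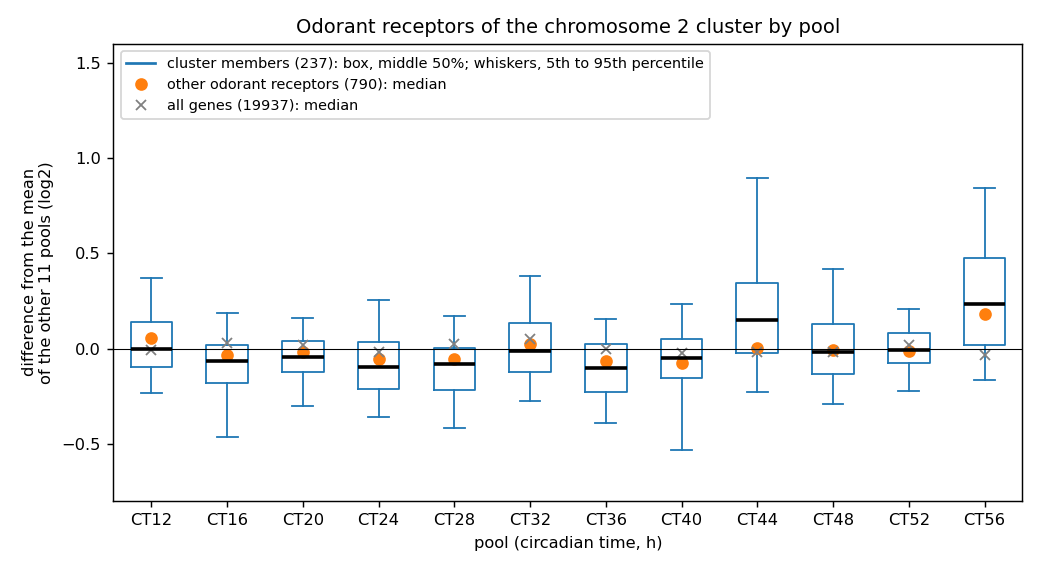
For each pool from CT12 to CT56, boxes show the log2 difference of that pool from the mean of the other 11 pools over the 237 receptors, with the middle 50% in the box, the median as a black line and whiskers from the 5th to the 95th percentile. Orange points are medians of 790 other odorant receptors and grey crosses medians of all 19937 genes. The 237 have a median of 0.23 at CT56 and 0.15 at CT44, and the other receptors lie near theirs at CT56 (0.18) but not at CT44 (0.005).

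The CT44 pool, in the subjective night, stood out for a smaller set of genes, which was seen after the values had been examined. CT44 was the highest pool in 56 of the 237 (23.6%), against 10.1% of other receptors and 3.84% of all genes. CT44 minus the mean of the other 11 pools had a median of 0.15, against 0.005 for other receptors and -0.02 for all genes. It exceeded 0.5 in 34 genes (14.3%, against 6.71% of other receptors and 0.963% of all genes), and 0 genes lay below -0.5, where 0.0502% of all genes did. As at CT56, there is 1 pool and no test. Without CT56 in the data, CT44 was the highest pool in 89. Genes highest at CT56 must then be highest in another pool, and the share of all genes without CT56 is not set beside this count.

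Olfr1206 was listed at 8.06 in CT44, against 5.67, 5.96 and 6.46 as the lowest, median and highest of the other 11 pools, a difference of 2.05 or 4.15-fold. Olfr1281 had 5.95 in CT44, against 3.87, 4.12 and 4.76 (1.78). Its neighbour Olfr1280 had 6.44 in CT44, against 4.65, 4.82 and 5.29 (1.58). Both neighbours were next highest at CT28, and in all 3 genes CT44 stood more than a log2 unit above every other pool.

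Olfr1228 had 6.80 in CT44, against 5.07, 5.32 and 5.43 as the lowest, median and highest of the others (1.53). Olfr1205 had 7.78, against 6.12, 6.29 and 6.46 (1.49). Unlike the genes that led at CT56, both had 11 pools within a narrow band and a single high one. Olfr1264, Olfr1195 and Olfr1178 were higher in CT44 by 1.09, 1.07 and 1.04, and Olfr1183, Olfr1257 and Olfr1180 by 0.97, 0.97 and 0.96. At CT56 these 11 genes differed from their other pools by -0.14 to 0.15. Olfr1297 was high in both pools, by 1.10 at CT56 and 1.00 at CT44. The differences at CT56 and at CT44 are made from the same 12 pools, so no relation between them is drawn.

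**Figure D4:**
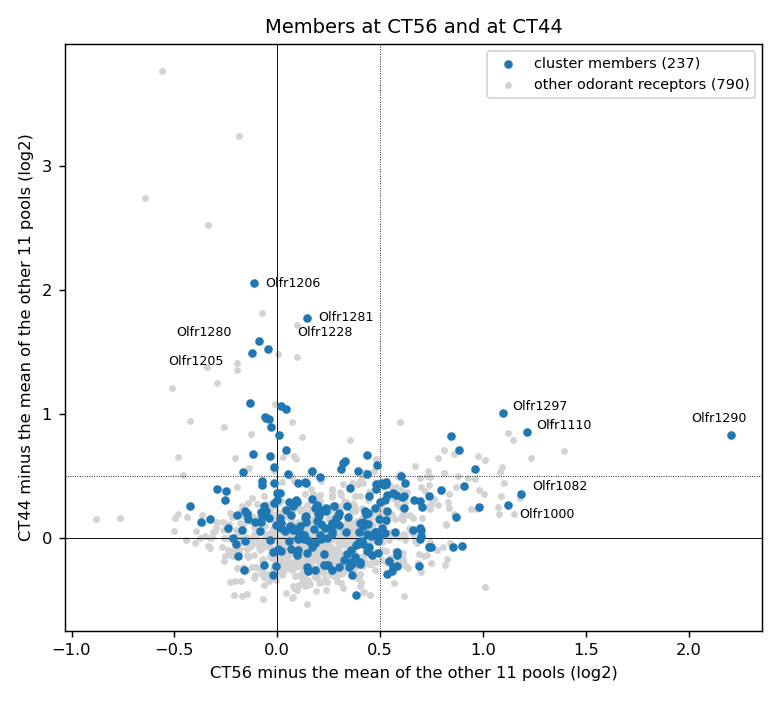
Each blue point is 1 of the 237 receptors and each grey point 1 of 790 other odorant receptors, with the log2 difference of CT56 from the other 11 pools on the x axis and that of CT44 on the y axis. Dotted lines mark 0.5, and 10 genes are named. Olfr1206, Olfr1281, Olfr1280, Olfr1228 and Olfr1205 lie high on the CT44 axis and between -0.13 and 0.15 on the CT56 axis, and Olfr1290 lies at 2.20 on the CT56 axis.

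The genes high at CT44 were mostly low in signal, and those high at CT56 were spread over all levels. With genes sorted into 4 classes at the 25th, 50th and 75th percentile of the level of all genes, 153, 37, 19 and 28 of the 237 fell into the lowest to the highest class. The median CT56 difference was 0.14, 0.36, 0.46 and 0.33 in these classes, in the same order, and the median CT44 difference was 0.22, 0.12, 0.02 and -0.15. Of the 34 genes past 0.5 at CT44, 29 belonged to the lowest class and 5 to the next. Among all genes, 1.65%, 0.86%, 0.46% and 0.88% of the classes were past 0.5 at CT44, also most in the lowest. At CT56 the 52 genes split into 25, 11, 9 and 7. These were 16.3%, 29.7%, 47.4% and 25% of the receptors in each class, against 3.67%, 3.47%, 3.91% and 3.37% of all genes.

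The pools that stood out also differed along the chromosome. In run 2, Olfr996 to Olfr1126, CT56 was the highest pool in 54 of 89 genes and CT44 in 8, with median differences of 0.40 at CT56 and 0.02 at CT44. In run 3, Olfr1130 to Olfr1274, the counts were 41 and 36 of 107, with medians of 0.15 and 0.20. In run 4 they were 12 and 12 of 35, with medians of 0.14 and 0.22. Of the 34 genes past 0.5 at CT44, 22 lay in run 3, all but Olfr1134 of them between Olfr1178 and Olfr1264, 8 in run 4, 4 in run 2 and 0 in run 1. Run 2 also had a higher median level (7.21) than runs 3 and 4 (6.17 and 5.91), and the share of level in the difference between runs was not tested.

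Neighbours had more similar profiles than other pairs. Over the 12 pools, Pearson's r had a median of 0.45 over 233 pairs of adjacent receptors and 0.23 over the 27730 other pairs, and without CT44 and CT56 it was 0.28 and 0.04. All pairs share the same 12 arrays and their scaling, and neighbours are often close in sequence, so that a transcript may reach both probes. The most similar neighbours were Olfr1280 and Olfr1281 (r = 0.976), Olfr1046 and Olfr1047 (0.947) and Olfr1014 and Olfr1015 (0.946).

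**Figure D5:**
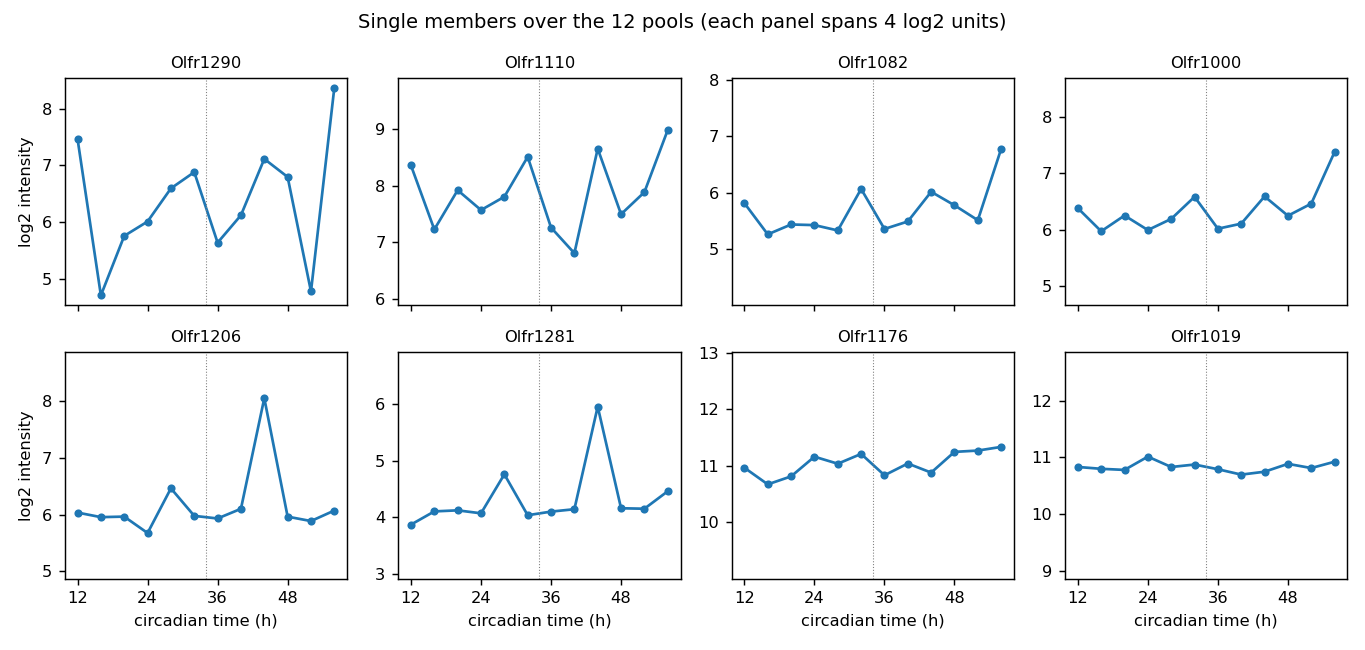
Log2 intensity of 8 receptors over the 12 pools, plotted against circadian time in h, 1 point per pool and 4 log2 units per panel; the dotted line separates the first and the second cycle. Olfr1290, Olfr1110, Olfr1082 and Olfr1000 peak at CT56 with other raised pools, Olfr1206 and Olfr1281 have a single high pool at CT44, Olfr1176 runs from 10.67 to 11.33, and Olfr1019 from 10.70 to 11.01.

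Several of the genes that led at CT56 shared the same 4 high pools, a pattern noticed in the values. In Olfr1110 the pools from CT12 to CT32 had 8.36, 7.23, 7.92, 7.57, 7.81 and 8.51, and those from CT36 to CT56 had 7.26, 6.81, 8.66, 7.5, 7.89 and 8.99. CT12, CT32, CT44 and CT56 were the 4 highest. The same 4 pools were the highest in 29 of the 237 genes (12.2%), against 9.24% of other receptors and 0.652% of all genes. Among the 29 were Olfr1290, Olfr1297, Olfr1082, Olfr1246 and Olfr1251 and the neighbours Olfr1014, Olfr1015, Olfr1016 and Olfr1018, and 16 of the 29 lay next to another of them. No share for genes placed at random is set beside the 16, and a transcript may reach the probes of both neighbours. In Olfr1014 the 4 pools had 8.53, 8.73, 8.51 and 9.15, against 7.69 to 8.49 in the other 8, and in Olfr1297 they had 8.10, 8.08, 8.51 and 8.60, against 6.55 to 7.70. Run 2 held 13 among its 89 genes, run 3 held 11 among 107, run 4 held 5 among 35 and run 1 held 0 among 6. The 29 genes were picked for these 4 pools, so a higher mean in the 4 than in the other 8 follows from the choice. Its size was 0.24 to 1.66, with a median of 0.54.

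A marker of an epithelial zone had its highest values in the same 4 pools, as did 0.652% of all genes. Ncam2, an adhesion molecule of sensory neurons outside the dorsal zone that was looked at after the receptor values had been seen, had 8.61 at CT12, 8.68 at CT32, 8.60 at CT44 and 8.44 at CT56, against 7.86 to 8.23 in the other 8 pools. Values of 2 genes known from the dorsal zone are given beside it. Nqo1, an enzyme, had 12.74 at CT12, 12.79 at CT32, 12.38 at CT44 and 12.66 at CT56, against 12.51 to 12.71 in the other 8 pools. Acsm4 had 13.34 at CT12, 13.24 at CT32, 13.18 at CT44 and 13.01 at CT56, against 13.17 to 13.33. Their part in the receptor values was not tested.

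Genes needed for receptor choice and signalling were mostly lower in the second cycle. The difference was below 0 in 83.3% of choice genes and 93.3% of measured transduction genes, against 61.7% of all genes. Markers of sensory neurons were mostly lower too, 90% of 10 mature and 100% of 10 immature markers. At an unadjusted p under 0.05 by limma, 7 mature markers (70%) were lower and 1 higher, and 8 immature markers (80%) were lower and 0 higher. The mature list shares genes with the choice and transduction lists. Of 18 genes of receptor choice and expression, all measured, 0 passed either test, and at an unadjusted p under 0.05 by limma 7 were lower (38.9%, against 8.94% of all genes) and 0 higher in the second cycle, with a median difference of -0.11. Atf5, a stress-response factor of the receptor feedback signal, had the smallest p, with 10.77, 10.98 and 11.03 as its lowest, median and highest value in the second cycle, against 11.01, 11.13 and 11.31 in the first (-0.21 ± 0.05, adjusted p = 0.304). Lhx2, which encodes the homeodomain factor, differed by -0.17 ± 0.05 (adjusted p = 0.304) and Adcy3, adenylyl cyclase 3, by -0.22 ± 0.06 (adjusted p = 0.304). In the 24 h fit, 1 of the 18, Ebf4, had an unadjusted p under 0.05 (amplitude 0.14 ± 0.05, peak CT 8.62 h, adjusted p = 0.996).

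Of 16 transduction genes, 15 were measured and 0 passed either test. At an unadjusted p under 0.05, 6 were lower (40%, against 8.94% of all genes) and 1 was higher in the second cycle (median -0.08). Cngb1, a subunit of the cyclic nucleotide-gated channel, had the smallest p, with 10.91, 11.01 and 11.15 in the second cycle, against 11.17, 11.23 and 11.27 in the first (-0.22 ± 0.06, adjusted p = 0.304 by limma). The cycles did not overlap in Cngb1. Slc12a2, which loads chloride into the neurons, had the smallest p in the 24 h fit (amplitude 0.11 ± 0.04, adjusted p = 0.996).

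Markers of the labelled tissue were present, and those of other cell types varied between pools. All 10 markers of mature olfactory sensory neurons were measured, with mean levels of 11.1 to 13.7. Their summed log2 level was 121.5 at CT56 and 120.9 at CT44, against 121.7 to 123.7 in the other 10 pools, and 1 of 10 was above the mean of its other 11 pools at either time. The 10 markers of immature neurons summed to 98.1 at CT56 and 97.1 at CT44, against 97.5 to 100.2 in the others.

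Of 7 genes taken as markers of Bowman's glands, 6 were above the mean of their other 11 pools at CT44. The median difference was 1.11, and 3 had their highest value there. The rise lay in Bpifb9a, Bpifb9b, Obp1a and Obp2b (3.75, 3.68, 2.56 and 1.11). Sox9 and Muc5b were nearly level (0.02 and 0.04), and Aqp5 was lower (-0.16). The 7 genes summed to 80.2 at CT44 and 71.3 at CT56, against 62.5 to 74.99 in the other 10 pools. Bpifb9b, a secreted gland protein, had 13.12 at CT44, against 5.93 at the lowest, 9.98 at the median and 11.60 at the highest in the other 11. The 6 respiratory epithelium markers summed to 68.4 at CT56 and 67.3 at CT44, against 64.3 to 67.8 in the others, and 5 of 6 were above the mean of their other 11 pools at CT56.

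Other lists also left their range. The 6 measured markers of globose basal cells summed to 49.0 at CT56 and 47.8 at CT44, against 47.7 to 48.9 in the other 10 pools. The 4 muscle markers summed to 28.9 at CT56 and 29.7 at CT44, against 29.3 to 30.6. The 3 measured markers of vomeronasal neurons summed to 27.5 at CT56 and 27.6 at CT44, against 27.7 to 28.3. Sustentacular, horizontal basal and immune cell markers lay within the range of the other 10 pools at both times, and the 1 measured red blood cell marker had 7.79 at CT56 and 7.75 at CT44, against 7.53 to 7.79. The part of these lists in the receptor values was not tested.

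Over the whole array the columns had medians from 7.81 to 7.92, and pools correlated at 0.964 to 0.995 over all probes. CT56 had the lowest mean correlation with the other pools (0.975, the next lowest being 0.981).

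The ends of the number range are not set by expression. Just inside it, Olfr987 and Olfr988 differed at CT56 by 0.10 and 0.21 and at CT44 by -0.14 and -0.01, and Olfr1316 and Olfr1317 by 0.14 and -0.15 at CT56 and 0.18 and 0.20 at CT44. Just outside it by number, the receptors lie on other chromosomes. Olfr985 and Olfr986 on chromosome 9 differed by 0.08 and -0.27 at CT56 and by 0.01 and -0.07 at CT44. Olfr1320 and Olfr1321 on chromosome X differed by -0.12 and -0.02 at CT56 and by 0.12 and 0.54 at CT44, so that Olfr1321 also lay past 0.5 there.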

How the data were processed

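Per the labels' protocols, RNA of olfactory epithelium from 48 mice in 12 pools was turned into single-stranded DNA by random priming along whole transcripts, labelled and hybridised to 1 array per pool. The authors deposited 1 value for each probe in each pool. The submitters' processing notes name affy. For its version and role, the background correction, the normalization and the centring, nothing was given in the sources used here. As deposited, the numbers run from 3.48 to 14.47 and were taken as log2 intensities, because the natural log of a scanner's upper limit is 11.09 and its log2 is 16. They were used as they stand, with no filter on dim probes.

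Of 34760 probes, 21640 list 1 gene symbol in the platform annotation, 1321 list several and 11799 are not listed. Symbols were looked up by Entrez ID in the RefSeq table of GRCm38.p6 (21553 matched, 0 changed). Of the 237 receptors, 3 had more than 1 probe.

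Fits used limma 3.58.1 in R 4.3.3 with the data.table package (1.17.8), over all 19937 genes, with Benjamini-Hochberg adjustment over all of them and a threshold of 0.05. The 24 h fit had a cosine and a sine and 9 residual degrees of freedom, and the cycle fit had phase as a factor and 5. Both were tested on simulated data. A difference of a single pool was called past 0.5 in log2. Figures used Python 3.11.15, pandas 2.3.3, numpy 2.4.6 and matplotlib 3.10.9. The labels carry no replicate number or batch, and each pool is its own group.

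The receptors, gene lists and tests were chosen with earlier results of these data known. The rule for named genes took the 10 smallest p of the 24 h fit, the 6 smallest per direction of the cycle fit, the 8 highest and 4 lowest at CT56, the 6 highest and 3 lowest mean levels, the 4 largest SD, Olfr1019, and the genes at the ends of the range. It took from each pathway list the gene with the smallest p. The 12 genes highest at CT44 and the other genes of the 4 shared pools were named after their values were seen. So were Lhx2, Adcy3, the single Bowman's gland markers, Ncam2, Nqo1 and Acsm4. Alternatives were 3 scalings, filters at the 25th and 50th percentile, the mean of all probes, another variance prior, array weights, other fits, other thresholds and leaving out pools.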

Additional observations from a re-analysis of the deposited data

Results flagged for a closer look

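Within each cycle of 6 pools, the highest and the lowest value of 55 named receptors and of the median over all 237 were set against the other 5, and a value was marked where its gap to the nearest, as a share of the whole range, was above Dixon's 95% critical value. Of 112 groups, 16 were marked. For genes not picked by their values, chance would give about 1 in 20, or 5.6. Most of the named genes were picked by their values, so no excess is read from the 16. CT44 was the high pool of the second cycle in 12 of them, and CT56 in 0. The gap as a share of the range at CT44 was 0.9 for Olfr1206, 0.895 for Olfr1280, 0.87 for Olfr1264, 0.87 for Olfr1195 and 0.866 for Olfr1183. It was 0.825 for Olfr1178, 0.824 for Olfr1228, 0.82 for Olfr1205, 0.816 for Olfr1097, 0.806 for Olfr1281, 0.791 for Olfr1257 and 0.78 for Olfr1180. Many of these genes were chosen for being high at CT44, so their number is a description.

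In the first cycle, Olfr987 was low at CT28 with a gap of 0.871 of the range. Olfr1281 was high at CT28 (0.716), Olfr1155 at CT24 (0.658) and Olfr1257 at CT20 (0.634).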

How the results depend on the processing

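No paired analysis was possible because the labels carry no replicate numbers, beyond the pairs of pools 24 h apart that the cycle fit already uses. Single pools without a repeat, signals near background and probes that may bind relatives limit what can be read for any 1 receptor. The adjusted counts were 0 for the 24 h fit under each alternative run, and 0 for the cycle fit except for 1 gene with array weights and 2 without CT12 or CT36. Without genes under the 25th percentile 84 receptors were left, and under the 50th 47, which lowers every count below by construction.

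The unadjusted 24 h count of 5 was 8 with quantile normalization, 2 and 1 with the filters at the 25th and 50th percentile, 11 with array weights, 14 with a linear term of time, 8 and 2 at periods of 22 and 26 h, 11 without CT32 and CT56 and 12 without CT44 and CT56. The 38 receptors higher in the second cycle were 18 and 15 with the filters, 83 with array weights, 16 with a cosine in place of phase, 22 without CT32 and CT56 and 11 without CT44 and CT56, where 5 were lower. For CT56, 27 and 16 receptors were past 0.5 and 53 and 32 highest with the filters, with medians of 0.37 and 0.39, and 103 and 5 were past 0.3 and 1. For CT44, with the filters 5 and 0 were past 0.5 and 3 and 0 highest, and the median turned to -0.025 and -0.073; 69 and 9 were past 0.3 and 1. Leaving out CT44 and CT56 together, and all CT44 counts, were chosen after seeing the data. The causes were not tested. For the settings in this section, shares of all genes are not set beside the counts, so no excess over all genes is read from the counts.

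Leaving out 1 pool at a time gave 3 to 24 unadjusted 24 h calls, 0 to 2 adjusted cycle calls, 22 to 76 receptors higher and 1 to 2 lower in the second cycle, and a median difference of 0.05 to 0.12. It gave 44 to 57 receptors past 0.5 and 109 to 125 highest at CT56, with a median of 0.22 to 0.25. At CT44 it gave 30 to 38 past 0.5, 56 to 89 highest and a median of 0.13 to 0.16, the 89 without CT56. With quantile normalization, median centring and cyclic loess the CT56 median was 0.19, 0.25 and 0.25 and the CT44 median 0.14, 0.16 and 0.15.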

Other observations

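A further 14 probes list several symbols of the range and none outside it, and so stand for groups of related receptors. Their median level was 6.81. CT56 was the highest pool in 4 of them and CT44 in 6. For comparison, CT56 was the highest pool in 15.9% of all genes and 46% of the receptors described above, and CT44 in 3.84% and 23.6%. At CT56 0 of the 14 differed from the other 11 pools by more than 0.5 in log2, with a median of 0.15, and at CT44 4 did, with a median of 0.18. Higher by more than 0.5 were 3.61% of all genes and 21.9% of the receptors described above at CT56, and 0.963% and 14.3% at CT44. The 14 probes are few, and their counts were not tested against these shares.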
